A study of Mus musculus with 6 samples.

Results

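The genes described here encode the subunits, regulators and assembly factors of the proteasome. They were taken by a rule on gene names, with earlier results of these data known. Every row of the value table whose only gene symbol began with Psma, Psmb, Psmc, Psmd, Psme, Psmf or Psmg was taken, with the brightest row where a gene had several. This gave 49 genes of 22180 with a row. RNA came from cardiomyocytes of C57BL/6 mice 1 day old, all kept for 12 h at 2% O2, 5% CO2 and 93% N2. Fibroblast growth factor 21 (FGF21), a secreted hormone, was present at 1 µg/ml in 3 samples and absent from 3 control samples. Both groups were hypoxic, so the values show FGF21 on top of low oxygen and not low oxygen itself. The cells were enriched by pre-plating and not sorted, so other heart cells could remain. In such bulk samples fewer cells of a type and less RNA per cell cannot be told apart.

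The proteasome is the protease that degrades proteins tagged with ubiquitin. Its barrel-shaped core particle has outer rings of alpha subunits and inner rings of beta subunits, of which Psmb5, Psmb6 and Psmb7 cut peptide bonds. A regulatory cap binds the core: the ATPases of its base unfold the substrate and thread it into the barrel, and its lid removes the ubiquitin chain. Interferon replaces the catalytic beta subunits with the inducible Psmb8, Psmb9 and Psmb10, which form the immunoproteasome. Heart muscle depends on this system to clear damaged sarcomere proteins.

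The cardiac troponin T gene Tnnt2, which defines heart muscle, had a mean log2 value of 13.1 with FGF21 and 13.1 without. Of 14 cardiomyocyte markers, 4 were higher with FGF21 and 10 lower, with a median difference of -0.03, and the mean of their log2 values lay between 10.82 and 10.87 in FGF21 samples and between 10.84 and 10.97 in controls. Ttn, the gene of the giant sarcomere spring, differed by -0.22, Ryr2, the calcium release channel gene, by -0.17, and the sarcomere genes Actn2 and Actc1 by -0.11 each. In each of these genes control replicate 1 was the highest array and stood apart from the other controls. It was at 10.84 against 10.37 and 10.39 for Ttn, and 11.17 against 10.75 and 10.82 for Ryr2. For Actn2 it was at 11.49 against 11.20 and 11.19, and for Actc1 at 13.18 against 13.02 and 13.01. Markers of other cells were present as well. Endothelial markers were lower with FGF21 for 11 of 12 genes, and the mean of their log2 values lay between 7.09 and 7.31 in FGF21 samples and between 7.41 and 7.60 in controls. Their median difference was -0.28, and Kdr differed by -0.61, Cdh5 by -0.44, Erg by -0.35 and Esam by -0.33. At an unadjusted p under 0.05 by limma, 7 of the 12 were lower and 0 higher, where the share of all genes lower was 5.11%. Leukocyte markers were split, 6 of 12 higher and 6 lower, with mean levels of 7.77 to 7.95 and 7.77 to 7.84. Cd68 differed by -0.20, lower without overlap, and Ptprc by 0.20, higher without overlap. The shares of all genes without overlap were 8.14% for lower and 8.99% for higher. Fibroblast markers were split 5 and 5 of 10, at 10.7 to 10.8 in both groups. The dimmest of all these markers was the leukocyte gene Cd14, at a mean of 5.15. The part of the endothelial and cardiomyocyte differences in the values below was not tested.

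Of the 49 genes, 0 passed limma's adjusted p of 0.05 over all genes, where the share called was 0% of 22180. The smallest adjusted p was 0.251. At an unadjusted p under 0.05, 5 of 49 were higher with FGF21 and 0 were lower, where the share of all genes was 6.59% for higher and 5.11% for lower. The 5 were the cap genes Psmc1, Psmc5, Psmc6 and Psmd3 and the assembly factor gene Psmd10. Leaving out FGF21 replicate 2 reduced this to 1 gene, and leaving out FGF21 replicate 3 or control replicate 3 to 2 genes. Leaving out control replicate 1 gave 3 genes, 1 of them lower, and leaving out control replicate 2 gave 8. FGF21 and control values did not overlap for 15 of the 49, 12 of them higher with FGF21 and 3 lower, where the shares of all genes were 8.99% and 8.14%. Differences were small. The 95% interval of each of the 49 genes lay within 1.5-fold in both directions, from a lower bound of -0.35 to an upper bound of 0.39 on the log2 scale. Standard errors ran from 0.06 to 0.10.

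The median log2 difference over the 49 genes was 0.04, a 1.03-fold difference, against -0.01 over all genes, and 35 of 49 (71.4%) were higher with FGF21 against 47.8% of all genes. Leaving out an array moved this median to 0.0240 (FGF21 replicate 2), 0.0741 (FGF21 replicate 3) or 0.0854 (control replicate 2). Most members are bright, and bright genes were higher in general. When all genes were divided by mean level into 5 bins of 4436, the top bin held 32 members, of which 27 were higher, with a median of 0.08, while 70.7% of all genes in that bin were higher, with a median of 0.05. In the next bin 7 of 8 members were higher, against 63.9% of its genes. In the middle bin 0 of 4 were higher, against 39.5%, and in the bin below it 1 of 5, against 31.0%. The values are given by role below and in the plot of differences by role.

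**Figure D1:**
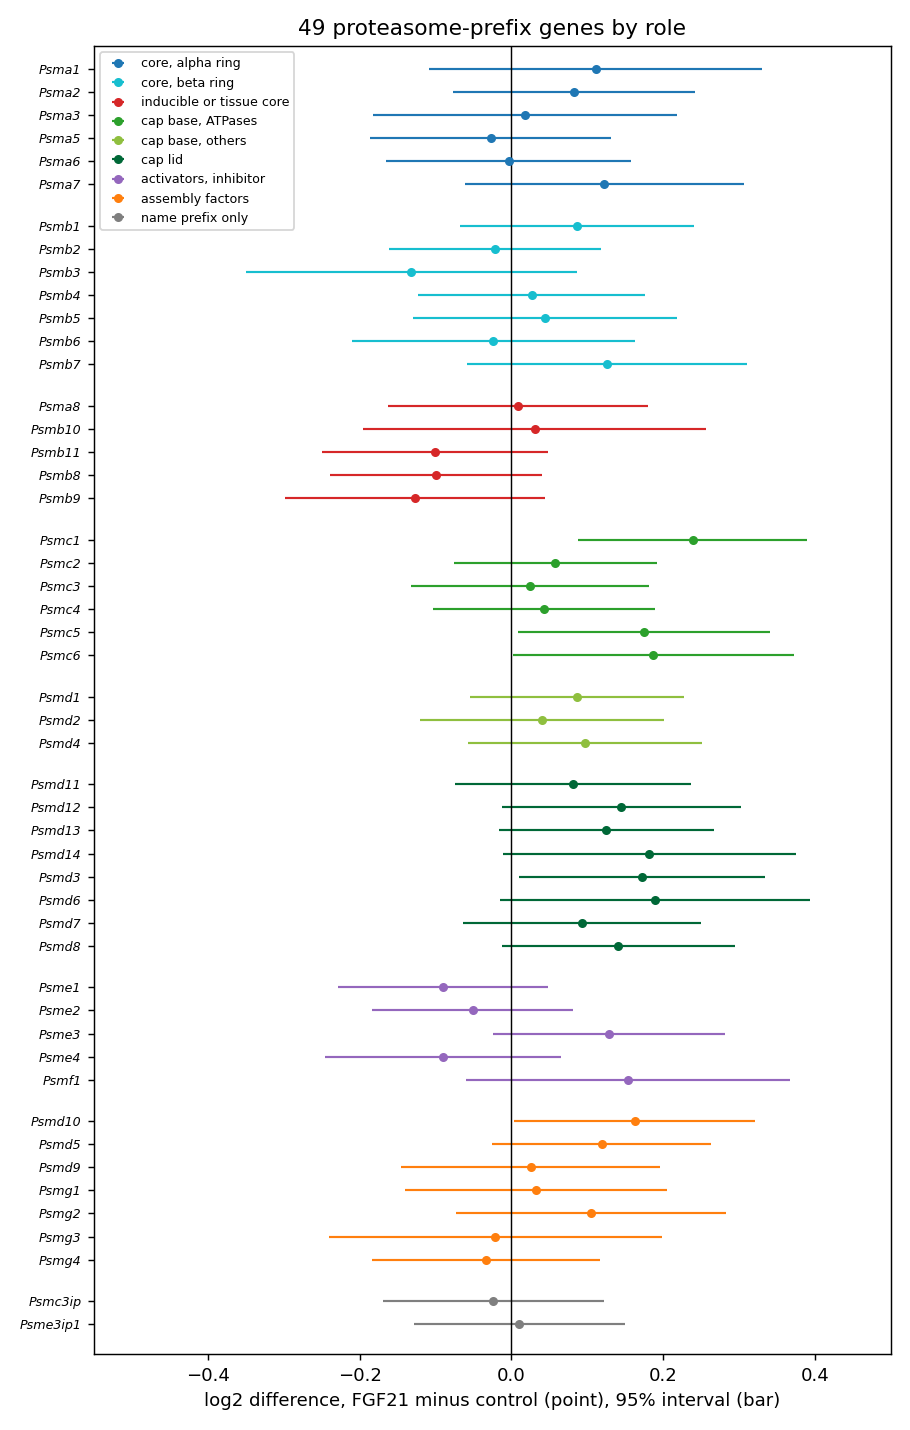
Log2 difference between FGF21 and control samples (x axis, 3 arrays per group) for each of the 49 genes (y axis), grouped by role; points are limma estimates and bars 95% intervals. All 17 cap genes lie to the right of 0, and the 13 measured core genes lie on both sides (8 right, 5 left), with the deposited scaling; 4 of the cap genes turn sign when the arrays are quantile normalized again.

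The sequences around the start of 4 members are given here because their differences span those described below. Psmc1 of the cap was higher without overlap, and Psmc6 of the cap had a higher mean but its groups overlapped. The groups also overlapped for the catalytic subunit gene Psmb6, and the activator gene Psme1 was lower without overlap. The sequences are RefSeq windows from 250 bases before to 50 after the start of the gene on build GRCm38.p6. The build behind the array's own probe sets is not given in the sources used here. Psmc1 lies at chr12:100109952-100110251 on the plus strand, Psmc6 at chr14:45329574-45329873 on the plus strand, Psmb6 at chr11:70525107-70525406 on the plus strand and Psme1 at chr14:55578244-55578543 on the plus strand. Capitals mark CCAAT in Psmc1, a match to the antioxidant response element core TGACNNNGC (other strand GCNNNGTCA) in Psmc6 and Psmb6, and a match to the interferon response element core GAAANNGAAA (other strand TTTCNNTTTC) in Psme1.
Psmc1: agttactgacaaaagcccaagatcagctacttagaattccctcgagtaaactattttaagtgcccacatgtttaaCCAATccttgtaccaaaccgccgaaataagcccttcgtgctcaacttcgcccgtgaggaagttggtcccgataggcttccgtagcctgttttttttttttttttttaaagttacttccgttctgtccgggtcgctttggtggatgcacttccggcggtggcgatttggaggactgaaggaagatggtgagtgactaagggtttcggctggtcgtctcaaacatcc
Psmc6: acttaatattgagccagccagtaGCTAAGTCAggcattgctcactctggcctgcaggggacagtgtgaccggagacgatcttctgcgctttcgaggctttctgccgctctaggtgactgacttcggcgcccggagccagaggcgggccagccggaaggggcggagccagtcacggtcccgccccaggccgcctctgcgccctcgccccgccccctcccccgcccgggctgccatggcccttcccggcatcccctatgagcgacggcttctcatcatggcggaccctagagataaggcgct
Psmb6: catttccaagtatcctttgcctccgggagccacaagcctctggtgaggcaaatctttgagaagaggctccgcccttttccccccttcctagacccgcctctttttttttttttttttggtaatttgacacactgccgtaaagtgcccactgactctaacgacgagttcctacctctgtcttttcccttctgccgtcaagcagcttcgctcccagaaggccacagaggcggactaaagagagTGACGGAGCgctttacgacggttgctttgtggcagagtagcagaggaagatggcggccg
Psme1: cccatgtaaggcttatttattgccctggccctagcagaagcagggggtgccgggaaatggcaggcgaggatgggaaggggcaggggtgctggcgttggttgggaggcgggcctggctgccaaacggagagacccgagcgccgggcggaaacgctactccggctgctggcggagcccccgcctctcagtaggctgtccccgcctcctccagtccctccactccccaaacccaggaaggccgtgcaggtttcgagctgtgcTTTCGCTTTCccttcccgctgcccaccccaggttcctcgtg

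The antioxidant response element core is the site read by Nfe2l1, the transcription factor that raises proteasome genes when proteolysis is short. It was searched on both strands in the windows of the 41 members that had one, and 6 (14.6%) held it, against 12.5% of 27025 windows, 1 for each gene. They were Psmb5, Psmb6, Psmc6, Psmd12, Psmd9 and Psme4. In Psmb6 the match began 9 bases before the start and in Psmb5 47 bases before, while in Psmc6 it began 227 bases before. CCAAT or its other strand ATTGG stood in 15 of the 41 (36.6%), against 37.9% of all windows, in 6 of 10 core genes (60.0%) and in 4 of 14 cap genes (28.6%). The interferon element core stood in 5 of 41 (12.2%) against 3.49%, in Psmb3, Psmd4, Psmd9, Psmg4 and Psme1. In Psme1 the match began at base 10 counted from the start on and in Psmg4 at base 16, so both lay after the start. Psmb8, Psmb9 and Psmb10 had none in these windows, which says only that these letters are not there. Matches of different motifs overlapped in 0 places.

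The regulatory cap was the part of the proteasome in which every measured gene had a higher mean with FGF21, 17 of 17, although 4 of them (Psmc2, Psmc3, Psmc4 and Psmd2) turned lower when the arrays were quantile normalized again. The median difference was 0.13, or 1.09-fold, and 0.0622 with that second normalization. Among 6966 genes at least as bright as the dimmest cap gene, 70.0% were higher, with a median of 0.05. At an unadjusted p under 0.05 there were 4 of 17 cap genes, where that share among the 6966 genes was 14.1%. This count rests on single arrays and on the scaling. It was 1 without FGF21 replicate 2 or control replicate 1, 2 without FGF21 replicate 3 or control replicate 3, 3 without FGF21 replicate 1 and 5 without control replicate 2. It was also 1 with quantile normalization applied again, 9 with median centring, and 6 under either a robust trended prior or a replicate block. FGF21 and control values did not overlap for 8 of 17 cap genes, all higher, against 19.6% of the 6966. Averaged over the 17 genes, the log2 level was 8.84, 8.87 and 8.82 with FGF21 against 8.67, 8.77 and 8.72 without, so the groups did not overlap, while control replicate 1 was lowest. That array held the lowest of the 6 values for 10 of 17 cap genes and 8 of 13 core genes, against 28.4% of the 6966 bright genes. Without it, 16 of 17 were higher and the median was 0.0976; without FGF21 replicate 1 it was also 16 of 17, and without each of the other 4 arrays 17 of 17.

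The ATPases of the cap base, Psmc1 to Psmc6, form the ring that unfolds substrates. Psmc1 (probe set 17277907) had the smallest p of the 49. Its log2 values were 8.84, 8.92 and 8.90 with FGF21 and 8.65, 8.73 and 8.56 without, and the lowest FGF21 array stood above the highest control. The difference was 0.24 ± 0.07 (SE, n = 3 per group), a 1.18-fold difference with a 95% interval of 1.06 to 1.31 and a limma adjusted p of 0.251. Psmc5 (17257554), whose product is also known for contacts outside the proteasome, stood at 7.15, 7.18 and 7.22 with FGF21 and 6.93, 7.15 and 6.94 without. Its groups touched but did not overlap, because control replicate 2 was close to the FGF21 arrays. The difference was 0.18 ± 0.07 (1.13-fold, adjusted p of 0.402). Psmc6 (17299200) was at 10.23, 10.38 and 10.52 with FGF21 and 10.11, 10.25 and 10.20 without. Here FGF21 replicate 1 fell inside the range of the controls. The difference was 0.19 ± 0.08 (1.14-fold, adjusted p of 0.421). The other ATPase genes were closer to 0: Psmc2 differed by 0.06, Psmc4 by 0.04 and Psmc3 by 0.02, each with a standard error of 0.06 to 0.07. For Psmc2 a dimmer second row differed by -0.07.

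The lid strips ubiquitin chains through the deubiquitinase Psmd14 and holds it in place with scaffold subunits. All 8 lid genes were higher, also under both other scalings, with differences from 0.08 to 0.19. Psmd14 (17371123) stood at 7.29, 7.33 and 7.31 with FGF21 and 6.93, 7.20 and 7.25 without. The FGF21 arrays were tight and above all controls, and control replicate 1 was far below the other controls. The difference was 0.18 ± 0.09 (SE), and 0.08 without control replicate 1. Psmd3 (17256113), a scaffold subunit, was at 8.08, 8.10 and 7.89 with FGF21 and 7.85, 7.82 and 7.87 without. FGF21 replicate 3 was barely above the controls, and the difference was 0.17 ± 0.07 (1.13-fold, limma adjusted p of 0.4). Psmd6 (17303578) was at 7.98, 8.01 and 7.92 with FGF21 and 7.60, 7.97 and 7.77 without, with control replicate 2 inside the FGF21 range. Its difference was 0.19 ± 0.09, and 0.10 without control replicate 1. Psmd8 (17488743) was at 10.87, 10.95 and 10.85 with FGF21 and 10.69, 10.85 and 10.71 without, so the groups met at control replicate 2 and FGF21 replicate 3. The difference was 0.14 ± 0.07. Psmd12, a scaffold subunit, was at 9.45, 9.57 and 9.54 with FGF21 and 9.28, 9.42 and 9.44 without, so FGF21 replicate 1 was barely above control replicate 3. Psmd13, of the same scaffold, was at 8.34, 8.39 and 8.29 with FGF21 and 8.17, 8.26 and 8.22 without, again with no overlap. Their differences were 0.15 ± 0.07 and 0.13 ± 0.06. Psmd7, the partner of Psmd14, differed by 0.09 and Psmd11 by 0.08, and both overlapped.

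**Figure D2:**
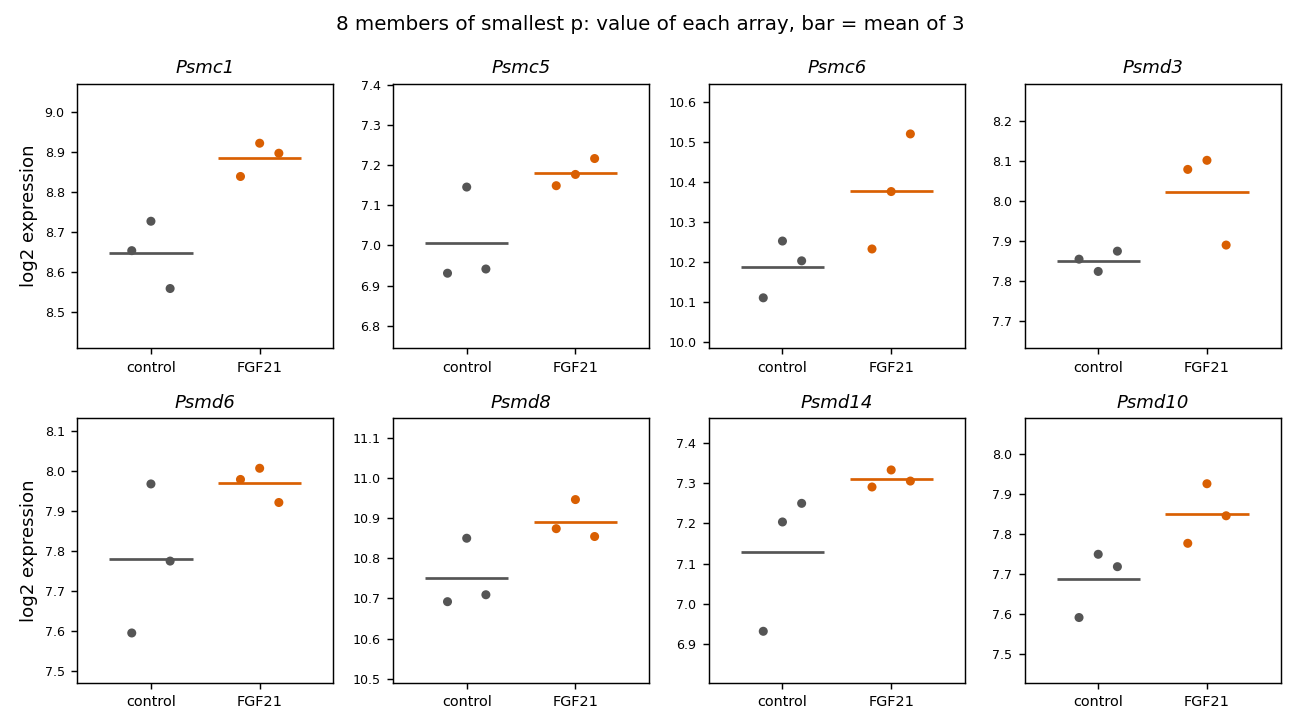
Log2 expression in each array (points, y axis; every panel spans the same range of log2 units, around its own centre) of the 8 members of smallest unadjusted p in control and FGF21 samples, with the mean of 3 as a bar. Groups do not overlap for 6 of the 8, which were picked for their small p, and control replicate 1, the leftmost grey point, is lowest in Psmc5, Psmc6, Psmd6, Psmd8, Psmd14 and Psmd10.

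The remaining base subunits differed less. Psmd4 (17407669), a receptor for ubiquitin chains, stood at 8.14, 7.98 and 8.13 with FGF21 and 7.99, 8.03 and 7.93 without. FGF21 replicate 2 lay among the controls, and the difference was 0.10 ± 0.07 (SE). The large scaffold genes Psmd1 and Psmd2 differed by 0.09 ± 0.06 and 0.04 ± 0.07. A row that joins Psmd1 with another gene is no member.

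In the core particle the values went both ways. Of 13 measured genes of the standard core, 8 were higher and 5 lower, with a median of 0.03, and 0 had an unadjusted p under 0.05. With quantile normalization applied again 6 of 13 were higher and the median was -0.02. Leaving out FGF21 replicate 2 gave a median of -0.00559, control replicate 1 0.00100, FGF21 replicate 3 0.0413, control replicate 3 0.0449, FGF21 replicate 1 0.0591 and control replicate 2 0.0624. Averaged over the 13 genes, the log2 level was 8.49, 8.57 and 8.53 with FGF21 against 8.40, 8.53 and 8.56 without, so the groups overlapped. The difference between cap and core was not tested, and 14 core genes were written, of which Psma4 shares its rows with another symbol and is no member.

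Alpha subunits build the outer rings and gate the entrance of the barrel. Psma7 (17395488) stood at 8.94, 9.06 and 8.94 with FGF21 and 8.69, 8.94 and 8.94 without. Control replicate 1 stood below the other arrays and FGF21 replicate 2 above them, and the difference was 0.12 ± 0.08 (SE). Psma1 differed by 0.11 ± 0.10 and Psma2 by 0.08 ± 0.07, and Psma3 by 0.02 and Psma6 by -0.00. Psma5 was dim, at a mean of 5.16 with FGF21 and 5.19 without, under the lowest array median of 5.76, and its second row was also dim. Its difference of -0.03 therefore carries little.

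Of the beta subunits that cut proteins, Psmb5 carries the chymotrypsin-like site, Psmb6 the caspase-like site and Psmb7 the trypsin-like site. Psmb5 (17306417) was at 8.30, 8.43 and 8.26 with FGF21 and 8.17, 8.38 and 8.31 without. The groups overlapped, and the difference of 0.04 ± 0.08 (SE) had a 95% interval of -0.13 to 0.22. Psmb6 (17252070) was at 8.50, 8.53 and 8.59 with FGF21 and 8.40, 8.60 and 8.70 without, and the FGF21 arrays lay inside the range of the controls. The difference was -0.02 ± 0.08, with an interval of -0.21 to 0.16. Psmb7 (17384693) was at 9.77, 9.81 and 9.75 with FGF21 and 9.47, 9.74 and 9.74 without. Its groups did not overlap, by a narrow margin, and the difference of 0.13 ± 0.08 became 0.04 without control replicate 1. The structural beta genes Psmb1, Psmb2 and Psmb4 differed by 0.09, -0.02 and 0.03. Psmb3 differed by -0.13 ± 0.10, where control replicate 3 (6.80) stood above the other 5 arrays (6.40 to 6.52).

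The inducible catalytic subunits are raised by interferon and shift the peptides made toward those that fit major histocompatibility molecules. Psmb8 (17336446) was at 6.57, 6.47 and 6.51 with FGF21 and 6.62, 6.57 and 6.65 without. Its groups did not overlap, as for 8.14% of all genes in this direction, but FGF21 replicate 1 and control replicate 2 were nearly equal. The difference was -0.10 ± 0.06 (SE, adjusted p of 0.558 by limma). Psmb9 (17343789) was at 5.00, 5.11 and 5.10 with FGF21 and 5.08, 5.32 and 5.20 without, below the array medians in all 6 arrays. Its difference was -0.13 ± 0.08, and the groups overlapped at control replicate 1. Psmb10 (17512554) was at 7.92, 8.11 and 7.94 with FGF21 and 7.73, 8.12 and 8.02 without. It differed by 0.03 ± 0.10, or -0.03 with quantile normalization applied again. In the mouse genome Psmb8 and Psmb9 lie side by side on chromosome 17 with only Tap1, a peptide transporter gene, between them, and Tap1 differed by -0.08.

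Each inducible subunit was set against the constitutive partner it replaces, as the change of their log2 difference within an array. Psmb8 minus Psmb5 was lower with FGF21 by a difference of -0.14, Psmb9 minus Psmb6 by -0.10 and Psmb10 minus Psmb7 by -0.10. An exact two-sided permutation test over the 6 arrays gave p = 0.3, 0.4 and 0.3, and 0.4 for all after adjustment over the 3 pairs. This design cannot give a p below 0.1. The sign of the 3 differences held in each of 8 other settings, down to -0.000234 for Psmb9 minus Psmb6 with quantile normalization applied again. Psmb8 and Psmb9 had lower mean levels than their partners, and dimmer genes were lower in general. The median difference of all genes was -0.03 in the level bin of Psmb8 and -0.05 in that of Psmb9. It was 0.05 in the top bin, which held Psmb10 and the 3 partners. The part of this drift in the 3 differences was not tested.

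**Figure D3:**
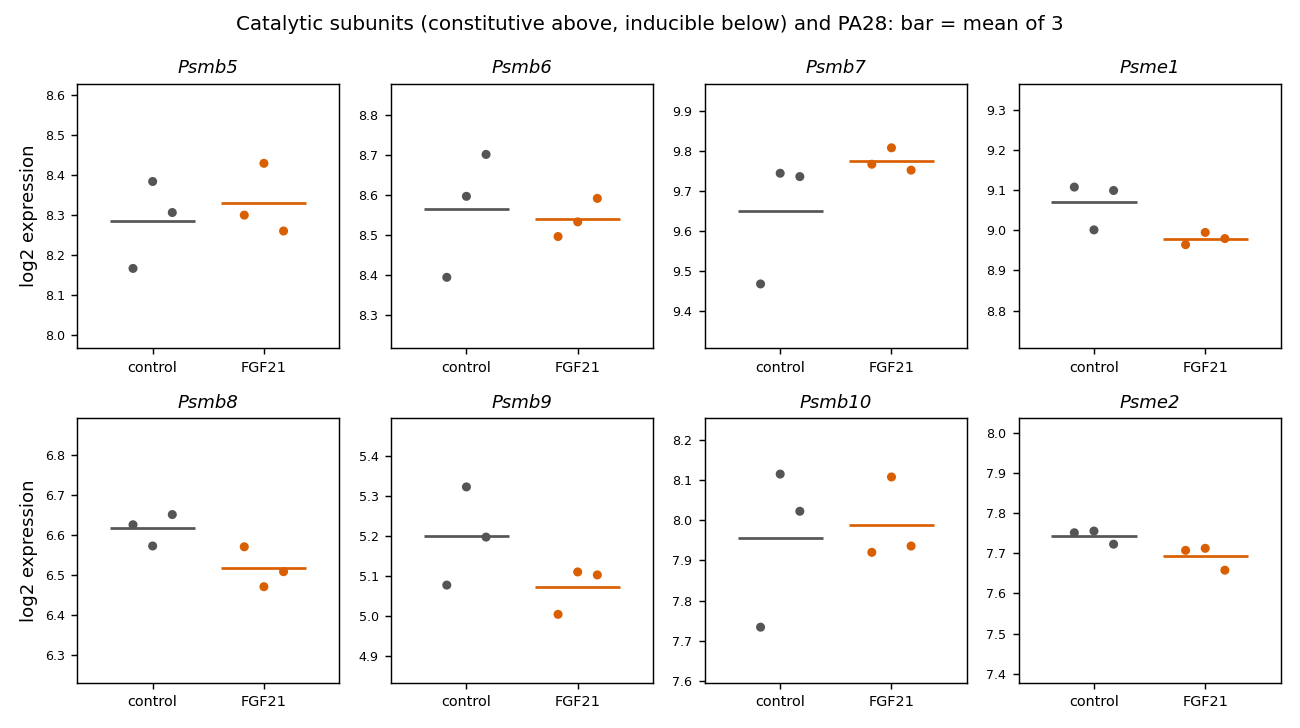
Log2 expression in each array (points, y axis; every panel spans the same range, around its own centre) of the constitutive catalytic genes (top), the inducible ones that replace them (bottom) and the activator genes Psme1 and Psme2 (right), with the mean of 3 as a bar. Only Psmb7 is higher without overlap in FGF21 samples, and Psmb8, Psme1 and Psme2 are lower without overlap.

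Of the tissue-specific core genes, Psmb11, of the thymus, differed by -0.10 ± 0.07 (SE) and Psma8, of the testis, by 0.01 ± 0.08. Psmb11 was near the array medians, at a mean of 5.83 with FGF21 and 5.93 without, and Psma8 was below them at 5.31 and 5.30. Psmb11 lies next to Psmb5 on chromosome 14. The interferon and antigen presentation genes gave no shared direction: 8 of 15 measured were higher, with a median of 0.02. At an unadjusted p under 0.05 there was 1 of 15, higher with FGF21, where the share of all genes was 6.59% for higher. It was H2-K1, which differed by 0.18 ± 0.08. This histocompatibility gene has near-identical relatives, and its reading is uncertain for that reason. Nlrc5, an activator of such genes, differed by -0.15 ± 0.08, Ifit2 by 0.17 ± 0.10 and Irf7 by -0.09 ± 0.07.

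Activators that open the core without ubiquitin, and an inhibitor, also split. Psme1 and Psme2 encode the mixed ring induced by interferon and lie on chromosome 14 with only Emc9 between them. Psme1 (17300548) was at 8.96, 8.99 and 8.98 with FGF21 and 9.11, 9.001 and 9.10 without. Control replicate 2 was barely above the FGF21 arrays, and the difference was -0.09 ± 0.06 (SE). Psme2 (17306705) was at 7.71, 7.71 and 7.66 with FGF21 and 7.75, 7.76 and 7.72 without, lower by a margin narrower than the spread within a group. It differed by -0.05 ± 0.06, and near-identical copies of this gene make its row uncertain. Psme3 (17256673), the nuclear activator, went the other way, at 7.46, 7.42 and 7.48 with FGF21 and 7.40, 7.36 and 7.22 without. The groups did not overlap, and the difference was 0.13 ± 0.07. Psme4 (17248135), which encodes an activator that binds the barrel end as a single large chain, was at 9.54, 9.48 and 9.57 with FGF21 and 9.73, 9.58 and 9.55 without. It differed by -0.09 ± 0.07, and by -0.04 without control replicate 1, the highest array. Psmf1 (17392868), an inhibitor of the isolated core, was at 7.93, 7.85 and 7.74 with FGF21 and 7.72, 7.85 and 7.49 without. It differed by 0.15 ± 0.10, and by 0.06 without control replicate 3, the lowest array.

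Assembly factors bind half-built intermediates and leave the finished particle. Of 7 measured, 5 were higher with FGF21 and 2 lower, with a median of 0.03. Leaving out control replicate 1 gave 0.00300, FGF21 replicate 2 0.0179, control replicate 3 0.0583, FGF21 replicate 3 0.0868, control replicate 2 0.0874 and FGF21 replicate 1 0.0898. Averaged over the 7 genes, the log2 level was 7.13, 7.21 and 7.12 with FGF21 against 7.02, 7.15 and 7.12 without, and the groups overlapped. Psmd10 and Psmd5, chaperones of the cap base, had the largest differences of the 7. Psmd10 (17544960), also called gankyrin, was at 7.78, 7.92 and 7.84 with FGF21 and 7.59, 7.75 and 7.72 without. The groups did not overlap, and the difference was 0.16 ± 0.07 (SE, 1.12-fold, limma adjusted p of 0.416). Psmd5, another base chaperone, was at 8.76, 8.77 and 8.83 with FGF21 and 8.59, 8.73 and 8.69 without. Its groups did not overlap either, and it differed by 0.12 ± 0.06. The third, Psmd9, differed by 0.03 ± 0.08 and overlapped. Of those that build the alpha ring, Psmg1 differed by 0.03, Psmg2 by 0.11, Psmg3 by -0.02 and Psmg4, which was dim, by -0.03. A dimmer row of Psmg2 differed by -0.08.

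**Figure D4:**
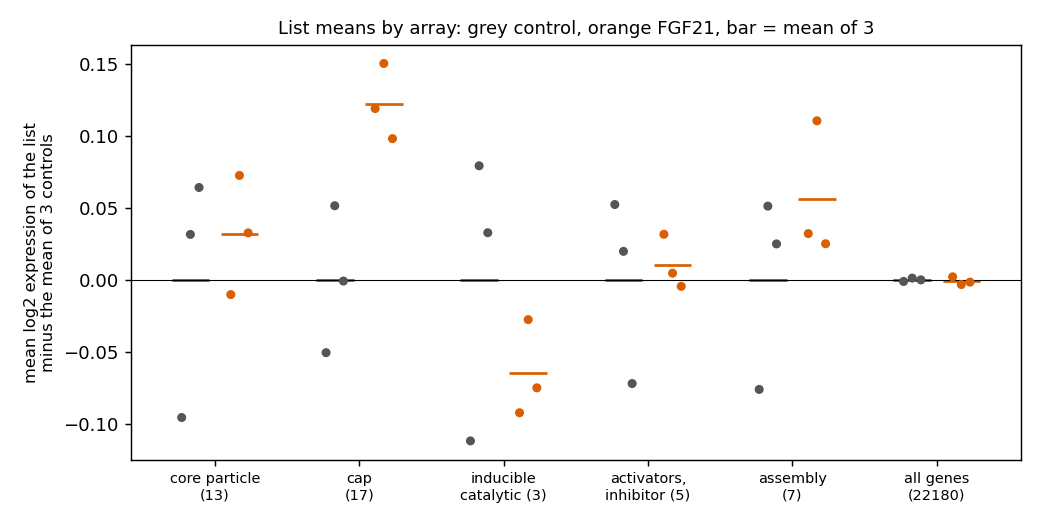
Mean log2 expression of each list in each array, minus the mean of the 3 controls (y axis), for the role lists and for all 22180 genes (x axis, number of genes in brackets); grey points are controls, orange FGF21, bars the mean of 3. The cap is the list whose FGF21 arrays (8.82 to 8.87 before subtraction) all lie above its controls (8.67 to 8.77), and control replicate 1 is the lowest point of every list but that of all genes and that of the activators, in which control replicate 3 is lowest.

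The name rule also took 2 genes that are no part of the particle. Psmc3ip (17269758), which encodes a partner of meiotic recombination enzymes, was at 5.69, 5.77 and 5.69 with FGF21 and 5.66, 5.77 and 5.79 without. It differed by -0.02 ± 0.07 (SE). Psme3ip1, whose product binds Psme3, differed by 0.01 ± 0.06. Without these genes 34 of 47 were higher and the median was 0.06.

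Other genes of the ubiquitin and proteasome system were taken from a list that did not use the name rule. Of 20 measured, 12 were higher (60.0%, against 47.8% of all genes) and 8 lower, with a median of 0.05, and at an unadjusted p under 0.05 there were 2, both higher, against 6.59% of all genes. Uchl5, a deubiquitinase docked on the cap, stood at 8.36, 8.61 and 8.59 with FGF21 and 8.27, 8.39 and 8.20 without, with FGF21 replicate 1 inside the controls. It differed by 0.24 ± 0.08 (SE). Uba6, a ubiquitin-activating enzyme, stood at 8.62, 8.69 and 8.91 with FGF21 and 8.56, 8.53 and 8.48 without. It differed by 0.21 ± 0.08 with no overlap, as for 8.99% of all genes in this direction. Ube3c, a ligase that extends chains at the cap, differed by 0.11 ± 0.06 and Sem1, a small lid subunit, by 0.12 ± 0.07.

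Nfe2l1 itself was at 8.53, 8.69 and 8.67 with FGF21 and 8.70, 8.61 and 8.63 without, a difference of -0.02 ± 0.07 (SE). The groups overlapped, and the 95% interval was -0.17 to 0.13. Pomp, the chaperone that completes the core, was at 7.94, 8.31 and 8.01 with FGF21 and 7.72, 8.17 and 8.02 without, and it differed by 0.12 ± 0.12. Among 9 ubiquitin ligase genes of muscle and growth control, 5 were higher, with a median of 0.02. Mdm2, the ligase of p53, differed by 0.19 ± 0.06 and Fbxo32, the atrogin ligase of muscle wasting, by 0.18 ± 0.06. Their adjusted p by limma was 0.312 and 0.321. Groups did not overlap for these 2 of the 9, both higher. In this direction the share was 8.99% of all genes and 19.6% of the 6966 bright genes. Klhl40 differed by -0.15 ± 0.11, and its control replicate 1 (6.28) stood apart. The other controls of this gene were at 5.89 and 5.84, and its FGF21 arrays at 5.78 to 5.89. Fbxo40 differed by 0.05 ± 0.08. Trim63, the other classic ligase of wasting muscle, differed by -0.03 ± 0.06.

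**Figure D5:**
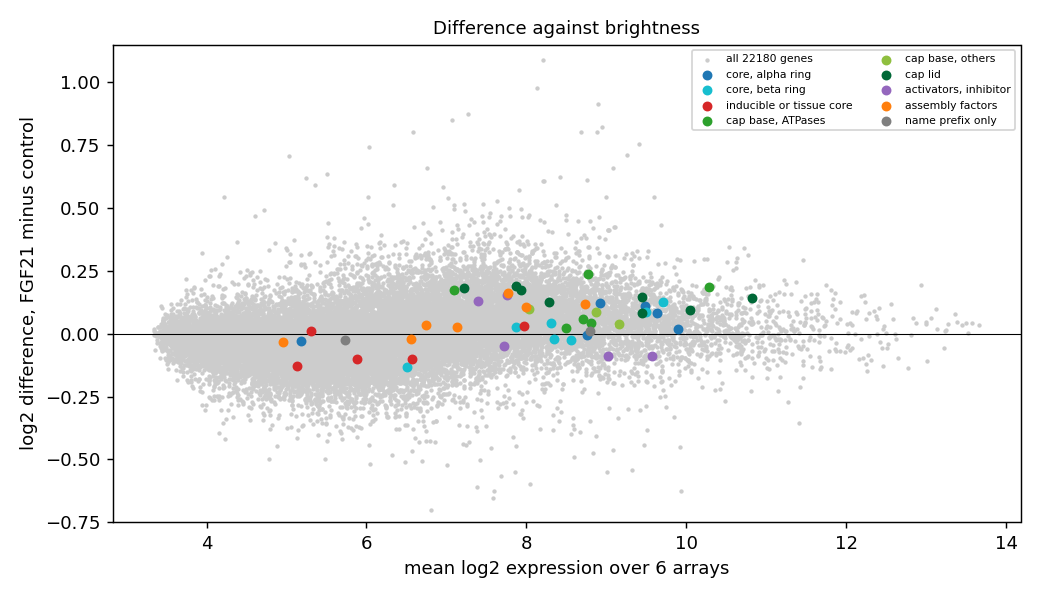
Log2 difference between FGF21 and control samples (y axis) against mean log2 expression over 6 arrays (x axis) for all 22180 genes (grey) and the 49 members (coloured by role). The members lie between -0.13 and 0.24 and the difference of all genes drifts upward with brightness, with a median of 0.05 in the top bin of 4436, which holds 32 members.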

How the data were processed

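Each of the 6 samples was read on 1 Mouse Gene 2.0 ST array (Affymetrix). The authors deposited log2 values made with RMA (R 3.2.2, affy), per the submitters' processing notes. This brings the arrays' distributions close together, so a change shared by most genes may not show. The array medians still differed between groups, at 5.76 to 5.79 with FGF21 and 5.81 to 5.83 in controls. The number of arrays limits the precision. Rows were named through the platform annotation (23521 with 1 symbol, 1814 with several, 16010 unnamed), and chromosomes come from the RefSeq table of GRCm38.p6. For genes with several rows, the brightest row was kept. Groups were compared with limma 3.58.1 in R 4.3.3 (lmFit, eBayes, no covariate, two-sided, Benjamini-Hochberg over 22180 genes). The fit was checked on simulated data with independent scatter and added differences larger than those of the members. That check does not cover differences of the members' size. The labels call replicates biological without naming separate cultures, so p-values reflect only the scatter of these 6 samples, which may be technical. The members and lists were chosen with earlier results of these data known. Arrays are shown for the 8 members of smallest p, the catalytic, activator and inhibitor genes and the smallest p of each role. Arrays of Psmd12, Psmd13 and Psmd5, all higher without overlap, and a control array of Psmb3 are shown outside this rule. Of other lists, up to 4 genes of smallest p were named, with Nfe2l1 and Pomp, some of them by their difference only. Tnnt2, Cd14, Tap1 and Trim63 were named in addition, after their values were seen. Alternatives were a replicate block, leaving out each array, a filter on dim genes, the mean of rows, quantile normalization again, median centring, a trend and robust prior and array weights.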

Additional observations from a re-analysis of the deposited data

How the results depend on the processing

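With limma's adjusted p under 0.05, 0 of 22180 genes were called, and 2594 had an unadjusted p under 0.05. The count was 58 with only genes above the median level, where fewer genes are tested, 16 with a trend and robust prior, 5 with quantile normalization applied again, 2 with median centring, the mean of rows or array weights, and 0 to 2 with an array left out; the causes were not tested. None of these calls was a proteasome gene in any of the 13 settings run. The proteasome median of 0.04 was 0.0828 with only genes above the median level, in which 43 members were left, and 0.0240 to 0.0854 with an array left out. The 5 members at an unadjusted p under 0.05, all higher with FGF21, became 1 higher and 1 lower with quantile normalization applied again. The count was 10 with median centring, 7 with a replicate block, and 1 to 8 with an array left out. The cap median of 0.13 was 0.0622 with quantile normalization applied again and 0.0976 to 0.148 with an array left out. Leaving out an array gave core medians of -0.00559 to 0.0624, inducible medians of -0.0956 to -0.0649, assembly medians of 0.00300 to 0.0898 and 30 to 38 higher members. With quantile normalization applied again Psmb5 was at -0.0229, Psmb10 at -0.0304 and Psmc3ip at 0.0109, each with its sign turned, and 28 of 49 members were higher. With an array left out Psmb5 ran from -0.0153 to 0.0932, Psmb6 from -0.109 to 0.0447 and Psmb10 from -0.0809 to 0.110. Same-numbered arrays deviated together with correlations of 0.103, 0.158 and 0.00653, against -0.160 to 0.0416 for FGF21 and control arrays of different number. These values do not settle whether the numbers pair the samples, and the main fit used no block. The block left the differences as they were and changed no adjusted call, while genes at an unadjusted limma p under 0.05 went from 2594 to 2902.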
